A study of Mus musculus with 6 samples.

Results

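The genes described here are the SRSF, hnRNP and CLK splicing regulators of mouse embryo fibroblasts: 10 SRSF genes, 18 hnRNP genes and the 4 CLK genes, 32 of the 18193 genes that the platform annotation gives as the only symbol of at least 1 probe set. They were taken by symbol (Srsf with a number, Hnrnp with letters or digits, Clk1 to Clk4), not by any measured value, although earlier results of these data were known. The cells were primary cultures from 2 ICR embryos at embryonic day 15.5, each culture grown from its own embryo and measured in every group. Control cells stayed at 37 °C without an agent, LPS cells received lipopolysaccharide, a glycolipid of bacterial outer membranes, at 1 μg/ml for 4 h, and HS+LPS cells spent 1 h at 42 °C before the same LPS treatment of 4 h. That makes 6 Affymetrix arrays, 2 per group; a group given heat alone was not analysed here, so HS+LPS against LPS holds the effect of heat together with its interplay with LPS.

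SR proteins (the SRSF family) bind exonic enhancers through RNA recognition motifs and recruit the spliceosome through a domain rich in arginine and serine. CLK kinases phosphorylate that domain and so set where SR proteins reside and how active they are. The hnRNP proteins coat nascent RNA and often oppose SR proteins at splice sites. In mammalian cells heat shock is known to dephosphorylate SR proteins and to inhibit splicing of many transcripts, and CLK and SR protein mRNAs are themselves alternatively spliced, some forms being retained in the nucleus or degraded by nonsense-mediated decay. An array probe set reads mRNA abundance at the 3' end of a transcript form; it reads neither phosphorylation nor splicing activity.

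The promoters below (250 bases before to 50 after the annotated start, RefSeq, build GRCm38.p6) belong to 3 genes that were lower after heat shock with the culture in the fit, and to Hnrnpa2b1, which was higher on the probe set used. They are shown 5' to 3' on the gene's strand because heat shock factor binds repeats of the letters GAA and TTC; capitals mark GAANNTTC or TTCNNGAA (N is any base; the second was counted with a base on each side).
Clk2, chr3:89164545-89164844, plus strand: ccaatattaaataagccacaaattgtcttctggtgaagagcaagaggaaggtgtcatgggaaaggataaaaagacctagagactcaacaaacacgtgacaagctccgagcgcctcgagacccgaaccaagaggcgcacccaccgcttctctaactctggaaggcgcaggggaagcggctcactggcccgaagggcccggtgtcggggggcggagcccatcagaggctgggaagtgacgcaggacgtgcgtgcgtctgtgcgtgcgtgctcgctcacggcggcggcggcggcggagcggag
Srsf3, chr17:29032410-29032709, plus strand: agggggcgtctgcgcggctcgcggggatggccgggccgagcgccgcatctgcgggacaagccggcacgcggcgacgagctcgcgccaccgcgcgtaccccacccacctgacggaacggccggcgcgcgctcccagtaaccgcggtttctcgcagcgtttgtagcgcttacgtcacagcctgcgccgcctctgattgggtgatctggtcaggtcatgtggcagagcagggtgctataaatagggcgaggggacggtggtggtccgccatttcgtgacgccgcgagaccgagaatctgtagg
Srsf5, chr12:80945249-80945548, plus strand: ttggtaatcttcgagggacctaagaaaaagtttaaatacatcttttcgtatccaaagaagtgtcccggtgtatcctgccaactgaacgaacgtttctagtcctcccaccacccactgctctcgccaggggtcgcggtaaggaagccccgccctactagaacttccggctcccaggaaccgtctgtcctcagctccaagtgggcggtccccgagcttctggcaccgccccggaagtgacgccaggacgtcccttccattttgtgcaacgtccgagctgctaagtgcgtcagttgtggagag
Hnrnpa2b1, chr6:51469796-51470095, minus strand: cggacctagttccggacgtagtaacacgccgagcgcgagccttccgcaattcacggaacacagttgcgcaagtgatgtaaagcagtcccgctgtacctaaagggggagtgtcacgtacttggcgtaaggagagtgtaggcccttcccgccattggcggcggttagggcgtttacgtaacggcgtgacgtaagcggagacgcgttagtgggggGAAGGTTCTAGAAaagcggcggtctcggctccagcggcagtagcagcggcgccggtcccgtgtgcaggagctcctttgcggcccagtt

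Promoters were found for 29 of the 32 genes, 41 windows in all (Clk1, Hnrnpll and Hnrnpul2 were not matched). Either motif, each its own reverse complement and so counted on both strands at once, occurred in 5 of the 41 windows (12.2%) and in 15% of all 32851 promoters of 300 bases. The 5 were 2 overlapping Hnrnpa2b1 windows that hold the same site, and 1 window each of Hnrnpf, Hnrnpl and Srsf9. Hnrnpf, Hnrnpl and Srsf9 were not called in any comparison at the main settings, without or with the block. The windows of Clk2, Srsf3 and Srsf5 printed above held neither, nor did those of Hnrnph1 and Hnrnph3, which were called higher. The printed Hnrnpa2b1 window held the 2 motifs 38 to 26 bases before its annotated start, which is 11 to 23 bases after the gene's second annotated start. They overlapped as GAAGGTTCTAGAA. That is 3 alternating units with 2 bases between them; such a run of 3, on either strand, occurred in 0.603% of all promoters and, among these genes, in the Hnrnpa2b1 windows only. The 3-unit search was added after the sequence had been seen, and a match of letters is not evidence of binding.

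Signals are scaled intensities as deposited. Every array had a trimmed mean of 100.001, so groups that differed in total mRNA would not show it. The noise level of an array, the brightest of 27 probe sets for Bacillus subtilis genes, was 6.0 to 7.67. None of 11 fibroblast markers was at or under noise on all arrays, and their sum was 31506 to 41152, with Vim at 5981 to 7784. They were not all steady: Pdgfrb read 1608 and 1549 in LPS and 883 and 911 in HS+LPS, Pdgfra 198 and 1309 against 117 and 573, and Lum 119 to 188 in culture 1 but 1578 to 1820 in culture 2. Of other cell types' markers, summed over each list, 6 neural and glial genes read 1377 to 1964 in Control, 1257 to 1873 in LPS and 1551 to 2265 in HS+LPS, none of them at or under noise on all 6 arrays. The 6 skeletal muscle genes read 301 to 354, 258 to 313 and 378 to 448, with Myh3 at or under noise throughout. Both sums were higher in HS+LPS in each culture through a few bright genes (Stmn2 and Map2; Acta1 and Des). Not all genes of the lists did so: Tubb3 was lowest in HS+LPS in both cultures. Mbp, Gfap and Ckm were lowest there in culture 1 but highest there in culture 2. The part of these markers in the results was not tested, and fewer cells of a type and less RNA per cell cannot be told apart in such bulk samples. The 8 macrophage genes summed to 204 to 415, with Itgam and Aif1 under noise, the 6 epithelial genes to 52.2 to 126 with Cdh1 under noise, and the 6 endothelial genes to 40.4 to 102 with Pecam1 and Tie1 under noise.

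Differences were tested with limma over 12918 genes, each by its brightest probe set, on log2(intensity + 3.37), and a gene was called at a Benjamini-Hochberg adjusted p under 0.05. All 32 genes passed the filter on dim probe sets. They were tested without and with the culture as a block; the block compares arrays within a culture and takes out constant differences between the 2 embryos. Srsf12 was the exception in brightness: it read 8.0 and 20.0 in Control, 6.15 and 9.22 in LPS, and 7.33 and 9.33 in HS+LPS, close to noise, and no direction can be read from it.

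LPS alone left no call among the splicing regulators. In LPS against Control limma called 0 of 32 genes without the block (0.147% of all genes tested were called) and 0 with it (2.74% of all genes), and 0 of the 32 had an unadjusted p under 0.05 in either fit, against 4.87% and 15.4% of all genes. The log2 differences ran from -0.58 (Srsf12) to 0.21 (Clk2), with a median of -0.03 beside -0.05 for all genes. Srsf1, an SR protein of constitutive and alternative splicing, read 1325 and 1340 in Control and 1389 and 1669 in LPS. Both LPS arrays lay above both Control arrays, but the log2 difference of 0.19 (SE 0.17) did not pass (limma adjusted p = 0.999, with the block 0.385). With 2 cultures per group, these values do not show that the genes did not respond.

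**Figure D1:**
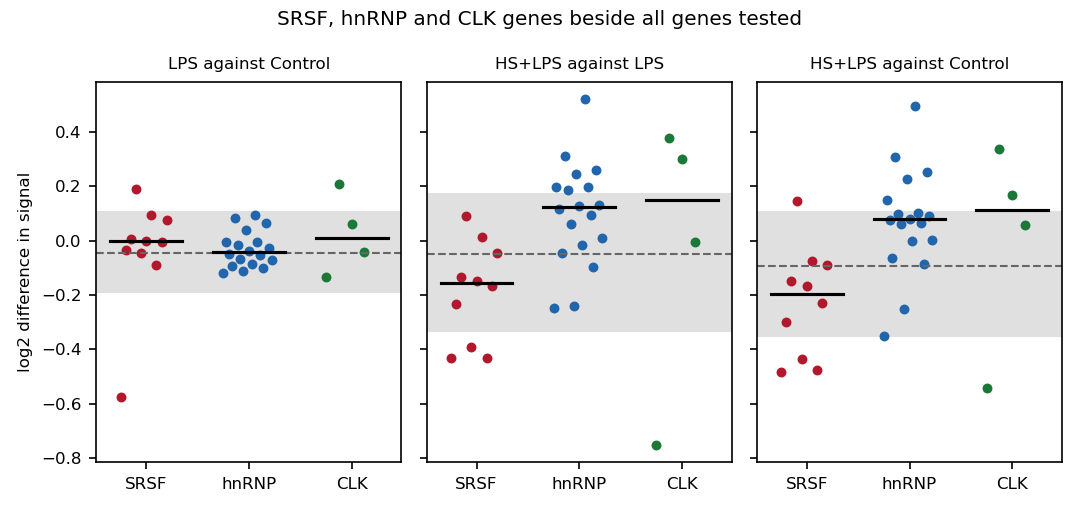
Log2 difference in signal of each SRSF (red, 10 genes), hnRNP (blue, 18) and CLK (green, 4) gene in the 3 comparisons, with the family median as a black bar. The grey band spans the middle 50% of all 12918 genes tested and the dashed line is their median; in HS+LPS against LPS the SRSF median lies at -0.16 and the hnRNP median at 0.12, both inside the band.

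Heat shock before LPS went with lower signal of several SR protein genes and of Clk2, and with higher signal of some hnRNP genes, by 1.24 to 1.69-fold for the genes called with the culture as a block. In HS+LPS against LPS limma called 0 of 32 genes without the block (1.35% of all genes called; 2 of 32 had an unadjusted p under 0.05, beside 16.8% of all genes). With the block 4 fell (Clk2, Srsf3, Srsf4 and Srsf5; 12.6% of all genes were called lower) and 2 rose (Hnrnpa2b1 and Hnrnph3; 6.32% were called higher). That is 18.8% of the 32 genes beside 19% of all genes, so the number of calls does not set these genes apart; 14 of the 32 had an unadjusted p under 0.05 with the block, beside 33.9%. All 6 calls were lost when the variance was not modelled as a trend on intensity; 3 remained without the filter on dim probe sets (Clk2, Srsf3 and Srsf5), 2 without LPS replicate 1 (Clk2 and Hnrnph3) and 3 without LPS replicate 2 (Clk2, Srsf3 and Srsf5).

 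The comparison of HS+LPS with Control shares the HS+LPS arrays. There 0 of 32 were called without the block (0.178% of all genes; 3 at an unadjusted p under 0.05, beside 16.2%), and with it 4 fell (Clk2, Hnrnpr, Srsf3 and Srsf5, beside 12.1% of all genes) and 2 rose (Hnrnph1 and Hnrnph3, beside 5.06%), 6 of 32 beside 17.1% of all genes, and 12 of 32 beside 31.8% at an unadjusted p under 0.05. These 6 calls too were lost without the intensity trend; none remained without Control replicate 2, 2 without Control replicate 1 (Srsf3 and Srsf5) and 3 without HS+LPS replicate 2 (Hnrnpr, Srsf3 and Srsf5).

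The CLK kinases did not move together. Clk2, a kinase that releases SR proteins from nuclear speckles, read 159 and 151 in Control, 192 and 168 in LPS, and 121 and 91.2 in HS+LPS (culture 1 first, here and below). Both HS+LPS arrays were below the 4 others. The log2 difference between HS+LPS and LPS was -0.75 (SE 0.18; -0.65 in culture 1 and -0.86 in culture 2), 1.69-fold lower; limma's adjusted p was 0.124 without the block and 0.00452 with it. Against Control the difference was -0.54 (adjusted p = 0.232, with the block 0.0192). The Clk2 call for HS+LPS against LPS held in 9 of 10 other settings with the block and in all 6 fits that left out an array; the call against Control held in 3 of those 6, not without Control replicate 1, Control replicate 2 or HS+LPS replicate 2.

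Clk1, the kinase whose own pre-mRNA retains introns in unstressed cells and is known to be spliced after heat, read 313 and 228 in Control, 288 and 234 in LPS, and 326 and 352 in HS+LPS. The HS+LPS arrays were the 2 highest, and the cultures differed more in Control than after heat. The log2 difference to LPS was 0.38 (SE 0.20; 0.18 and 0.58 by culture) and did not pass (adjusted p = 0.403, with the block 0.0782), although Clk1 was called with the block without HS+LPS replicate 1. Clk3, a related kinase, read 122 and 121, 125 and 97.6, and 135 and 139 (0.30 over LPS on the log2 scale, SE 0.17, adjusted p = 0.445 and 0.161 with the block). Clk4, the closest relative of Clk1, read 85.2 and 78.6, 98.2 and 74.5, and 83.0 and 87.8, and its cultures went opposite ways after heat, by -0.23 and 0.23. A second Clk4 probe set, 1422886_a_at, had a difference of 0.18 (SE 0.18). Clk2 was the only CLK gene below LPS in both cultures.

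**Figure D2:**
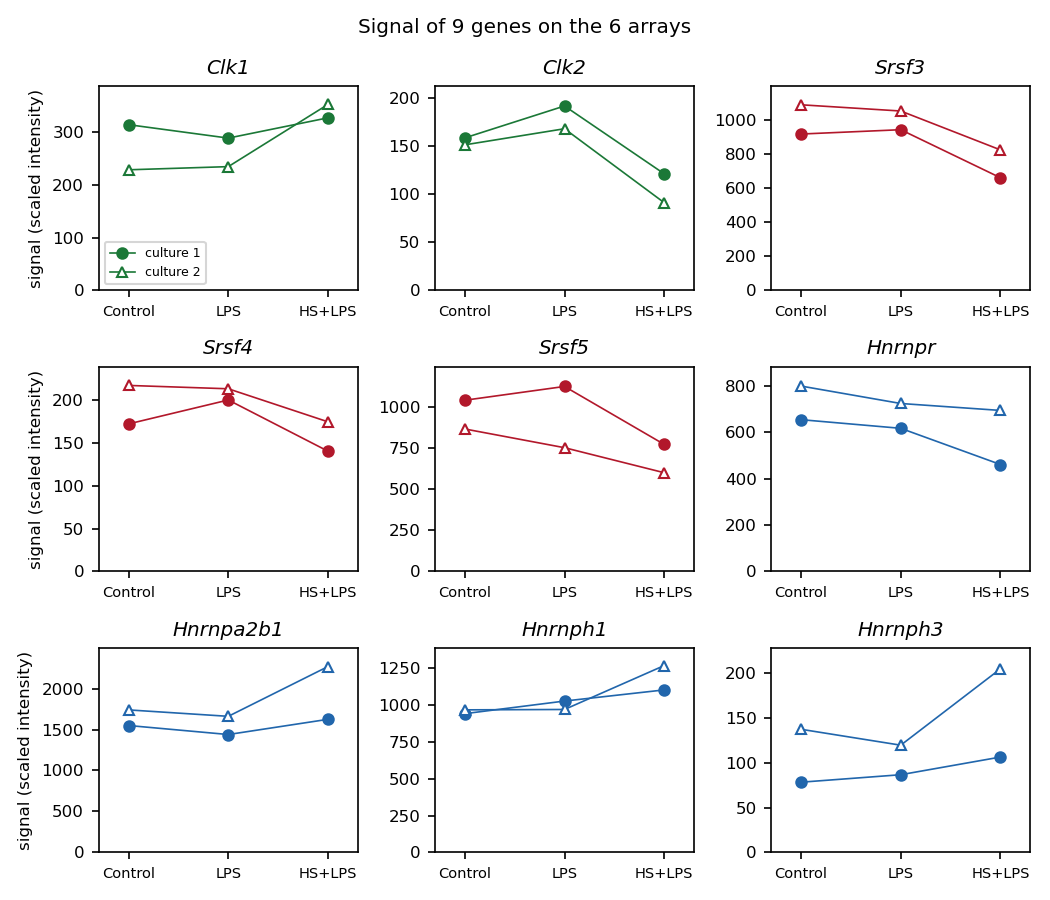
Signal in scaled intensity units (axes start at 0) of 9 genes on the 6 arrays, by group; filled circles are culture 1, open triangles culture 2, and lines join the arrays of a culture. Clk2 and Srsf3 were lower in HS+LPS than in either other group in both cultures, whereas Hnrnph3 and Hnrnpa2b1 differed more in culture 2.

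Of the 10 SRSF genes, 7 were lower in HS+LPS than in LPS in both cultures (Srsf2, Srsf3, Srsf4, Srsf5, Srsf6, Srsf10 and Srsf11), 1 higher in both (Srsf12) and 2 opposite; of all genes 40.7% were lower in both, 31% higher in both and 28.2% opposite. Without overlap between the groups, 5 were lower and 0 higher, beside 28.8% and 17.9% of all genes. The family median was -0.16, beside -0.05 for all genes, and stayed between -0.23 and -0.14 in 10 other settings, quantile normalization and median centring included. Against Control 9 of 10, Srsf12 near noise among them, were lower in both cultures (46.8% of all genes), with a median of -0.20 beside -0.09. There 7 lay below both Control arrays (31.1% of all genes) and 0 above (14.3%). That median lay between -0.23 and -0.12 in the 10 other settings. It was -0.12 beside -0.08 for all genes with all probe sets averaged, and -0.23 beside -0.06 after quantile normalization. With the stricter filter, which left out Srsf12, it was -0.17 beside -0.095.

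Srsf3, the smallest SR protein, which acts in splicing, 3' end processing and mRNA export, read 916 and 1087 in Control, 941 and 1051 in LPS, and 660 and 823 in HS+LPS. All 4 arrays without heat were above both heated ones. The log2 difference to LPS was -0.43 (SE 0.16; -0.51 and -0.35 by culture), 1.35-fold lower, with adjusted p = 0.251 and 0.00625 with the block. Against Control it was -0.44 (adjusted p = 0.257, with the block 0.00687). These calls were lost when all Srsf3 probe sets were averaged, which gave log2 differences of -0.23 and -0.15 (adjusted p = 0.179 and 0.399) and, for LPS, without LPS replicate 1 or, for Control, without Control replicate 2.

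Srsf5, an SR protein that shuttles between nucleus and cytoplasm, differed between the embryos: it read 1042 and 867 in Control, 1126 and 753 in LPS, and 773 and 601 in HS+LPS. The heated array was the lowest in each culture, though the lower LPS array was below the higher HS+LPS array. The log2 difference to LPS was -0.43 (SE 0.23; -0.54 and -0.32), with adjusted p = 0.423 and 0.0127 with the block, and to Control -0.48 (0.392 and 0.00925). These calls were lost without LPS replicate 1 and without Control replicate 2, respectively. Srsf4, a larger SR protein with a long arginine-serine domain, read 172 and 217, 200 and 213, and 141 and 175. Its difference to LPS was -0.39 (SE 0.18; adjusted p = 0.351, with the block 0.0392), and that call held in 5 of 10 other settings with the block and, of 6 fits that left out an array, only in that without HS+LPS replicate 2.

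The other SRSF genes moved by less. Srsf2, which binds exonic enhancers and also acts in transcription elongation, read 1482 and 1371, 1556 and 1454, and 1327 and 1353 (-0.17 against LPS on the log2 scale, SE 0.10, adjusted p = 0.48 and 0.148 with the block). After quantile normalization with the block Srsf2 passed, whereas Srsf4 and Hnrnpa2b1 did not. Srsf6, a regulator of alternative exons, read 1185 and 1107, 1206 and 1037, and 1037 and 1002 (-0.13, SE 0.12; 0.639, with the block 0.258). Srsf1 read 1284 and 1698 in HS+LPS, close to its LPS level in each culture (-0.04, SE 0.17). Srsf11 had a difference of -0.23 (SE 0.12; 0.375, with the block 0.075) and Srsf9 of 0.01 (SE 0.11).

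**Figure D3:**
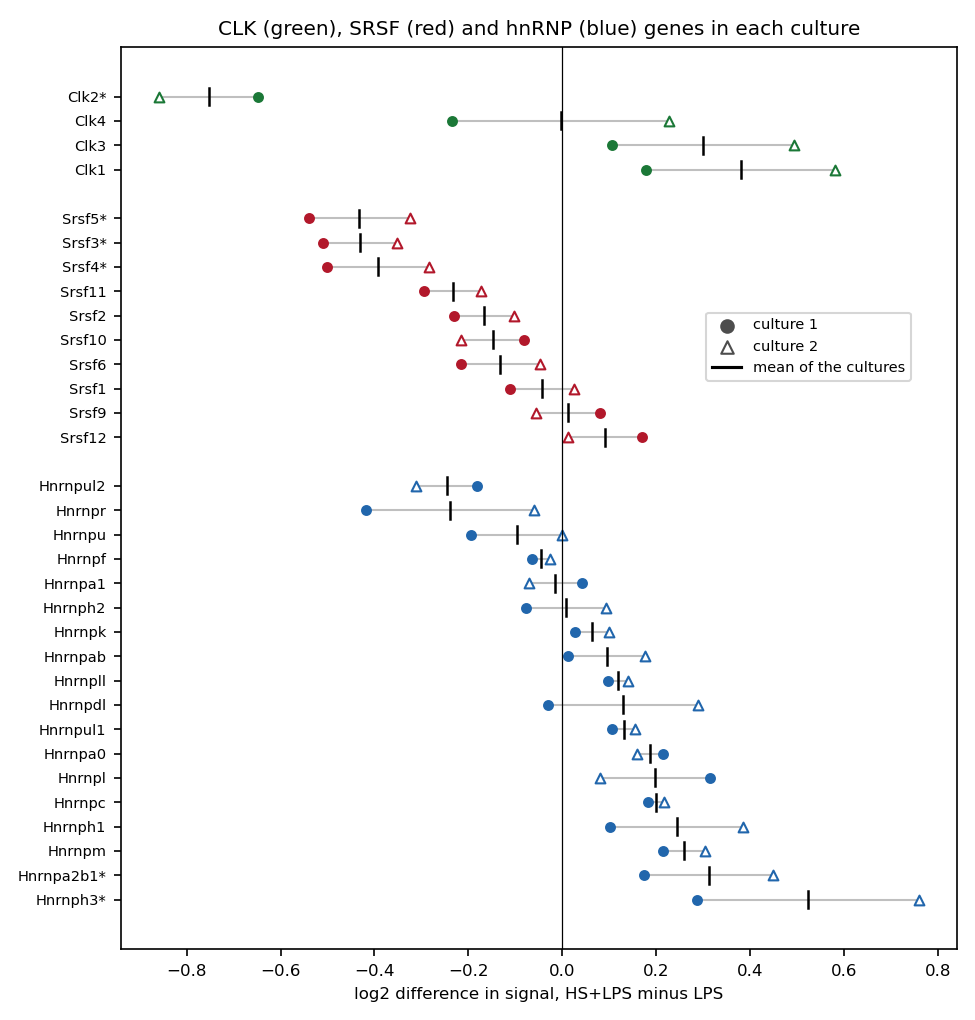
Log2 difference in signal between HS+LPS and LPS for the 32 genes, sorted within the CLK, SRSF and hnRNP families; filled circles are culture 1, open triangles culture 2, black bars the mean, and asterisks mark the 6 genes called with the culture as a block. Most SRSF genes lie left of 0 and most hnRNP genes right of it, with the ends at -0.86 (Clk2, culture 2) and 0.76 (Hnrnph3, culture 2).

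The hnRNP genes leaned the other way. Of 18, 11 were higher in HS+LPS than in LPS in both cultures, 4 lower in both and 3 opposite (31%, 40.7% and 28.2% of all genes). The median was 0.12, beside -0.05 for all genes; under quantile normalization it was 0.03, with 10 of 18 higher rather than 13, and without HS+LPS replicate 2 it was 0.04, again with 10 of 18 higher. Against Control it was 0.08, with 10 of 18 higher in both cultures (25% of all genes), 9 of 18 higher on average after quantile normalization and a median of -0.01 without HS+LPS replicate 2. Without overlap between HS+LPS and LPS, 6 were higher (Hnrnpa0, Hnrnpc, Hnrnph1, Hnrnpk, Hnrnpl and Hnrnpll), beside 17.9% of all genes. By the same rule 2 were lower (Hnrnpf and Hnrnpul2), beside 28.8%.

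Hnrnph3, of the hnRNP H and F group that binds runs of guanine, read 78.4 and 137 in Control, 86.7 and 120 in LPS, and 106 and 205 in HS+LPS. The culture mattered as much as the group: both groups overlapped, and culture 2 was higher throughout. The log2 difference to LPS was 0.52 (SE 0.40; 0.29 and 0.76), 1.44-fold, with adjusted p = 0.574 and 0.0373 with the block. Its call held in 2 of 6 fits with the block that left out an array, those without LPS replicate 1 and without HS+LPS replicate 1. Against Control the difference was 0.50 (0.633 and 0.048), a call lost without either Control replicate or HS+LPS replicate 2. With the block the Hnrnph3 calls held in 7 of 10 other settings against LPS and in 6 of 10 against Control. Hnrnph1, a paralog, read 942 and 968, 1028 and 971, and 1104 and 1269. Both heated arrays were the highest, by 0.24 (SE 0.11) over LPS (adjusted p = 0.356, with the block 0.08) and 0.31 over Control (0.267 and 0.0399). The call against Control was lost without either Control replicate or HS+LPS replicate 2. It held in 6 of 10 other settings with the block. It failed with all Hnrnph1 probe sets averaged, after quantile normalization, without the filter and without the intensity trend.

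Hnrnpa2b1, which also sorts RNAs for transport, read 1549 and 1739, 1439 and 1661, and 1624 and 2268 on its brightest probe set. The difference was larger in culture 2, by 0.45 against 0.17 in culture 1. The log2 difference to LPS was 0.31 (SE 0.18, limma adjusted p = 0.462, with the block 0.0415). It was -0.18 and -0.30 on 2 of its other probe sets and 0.03 over the mean of all 4. The call over genes did not carry to the fit of all probe sets, where the brightest did not pass with the block. The call was lost without LPS replicate 1, LPS replicate 2 or HS+LPS replicate 2. Hnrnpr, an hnRNP also involved in mRNA transport in axons, read 655 and 800, 617 and 724, and 461 and 694. It was called against Control with the block, at -0.35 (SE 0.22; adjusted p = 0.52, with the block 0.0422), while its difference to LPS, -0.24, was not (0.659 and 0.127). That call against Control held in 7 of 10 other settings with the block. It failed with all Hnrnpr probe sets averaged, without the filter and without the intensity trend. The call was lost without either Control replicate or HS+LPS replicate 1.

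The hnRNP genes of highest signal differed little. Hnrnpk, which binds cytosine-rich RNA, read 2491 and 2436, 2537 and 2531, and 2583 and 2713, a log2 difference to LPS of 0.06 (SE 0.09). Hnrnpf read 2262 and 2339, 2259 and 2288, and 2159 and 2246 (-0.05, SE 0.09), and passed with the block after quantile normalization. Hnrnpab read 4978 and 5348, 5169 and 4536, and 5215 and 5128 (0.09, SE 0.10); the highest signal of any probe set was 6931 to 8434 over the arrays. Hnrnpc, which masks cryptic exons, read 1892 and 2037, 1825 and 1973, and 2071 and 2294 (0.20, SE 0.11; adjusted p = 0.423, with the block 0.072). The remaining hnRNP genes lay between -0.25 (Hnrnpul2) and 0.26 (Hnrnpm). Hnrnpa1 has near-identical copies in the genome, and its signal may include them.

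Probe sets of 1 gene can read different transcript forms. The 32 genes had 93 probe sets, of which 89 passed the filter, and 20 genes had more than 1. In a fit of all 27024 probe sets, HS+LPS against LPS called 0 of the 89 without the block (0.278% of all probe sets higher and 0.385% lower; at an unadjusted p under 0.05 there were 1 higher and 5 lower, beside 4.53% and 9.08%). With the block 3 were higher (4.81% of all probe sets) and 7 lower (8.7%). Against Control 0 were called without the block (0.144% higher and 0.0037% lower; 3 and 3 at an unadjusted p under 0.05, beside 4.56% and 8.56%), and with it 3 were higher (4.59%) and 6 lower (7.74%). In LPS against Control limma called 0 of 89 without the block (0.0777% higher) and 0 with it (1.52% higher and 0.426% lower), with 0 at an unadjusted p under 0.05. Among those called against LPS were 2 Srsf10 probe sets that moved in opposite directions.

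Srsf10 encodes an SR protein known as a splicing repressor once heat shock removes its phosphates. Its probe set 1423982_at read 328 and 251 in Control, 275 and 312 in LPS, and 180 and 214 in HS+LPS, and both heated arrays were the lowest. The log2 difference to LPS was -0.57 (SE 0.19; adjusted p = 0.264, with the block 0.0342). Probe set 1418526_at read 220 and 192, 156 and 188, and 246 on both HS+LPS arrays, and these were the highest; the difference was 0.51 (SE 0.16; 0.245 and 0.0271). The brightest, 1418527_a_at, had a difference of -0.15 (SE 0.12) and 1449121_at one of -0.06 (SE 0.18). Which transcript form each probe set reads is not given in the files.

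The 2 brightest Srsf3 probe sets moved alike, the others less. The second probe set, 1454993_a_at, read 437 and 491, 444 and 528, and 328 and 396, with a difference to LPS of -0.42 (SE 0.16; adjusted p = 0.33, with the block 0.0128), close to the -0.43 of the brightest. Of its 6 probe sets, 5 had a negative difference to LPS and the dim 1438215_at a positive one. Srsf6 had 4 probe sets, each lower, and 1416720_at passed with the block (-0.39, SE 0.16; 0.355 and 0.0382).

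Hnrnpu had a dim probe set that was higher after heat, unlike its brighter ones. It encodes a nuclear matrix protein. Its probe set 1434390_at read 39.1 and 8.27 in Control, 36.2 and 8.82 in LPS, and 67.7 and 37.1 in HS+LPS. Both HS+LPS arrays were above both LPS arrays, with a log2 difference of 1.29 (SE 0.79; 0.85 and 1.73 by culture; adjusted p = 0.548, with the block 0.021). The 3 brightest Hnrnpu probe sets had differences of -0.10, -0.04 and -0.09. Srsf11 had a dim probe set, 1430077_at, at 13.4 and 6.60, 29.2 and 12.8, and 31.8 and 21.5, which passed against Control with the block (1.19, SE 0.46; 0.349 and 0.0276). Most of that difference was there with LPS alone (0.83 over Control), the step from LPS to HS+LPS was not called (0.37, SE 0.46; 0.79 and 0.444), and 1 Control array was near noise. Hnrnpdl, an hnRNP whose mRNA carries a regulated 3' region, had 1428225_s_at at 100.3 and 49.7, 68.5 and 59.0, and 97.2 and 138 (0.83 over LPS, SE 0.35; 0.378 and 0.081), while 1424252_at differed by 0.52 and the brightest by 0.13.

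**Figure D4:**
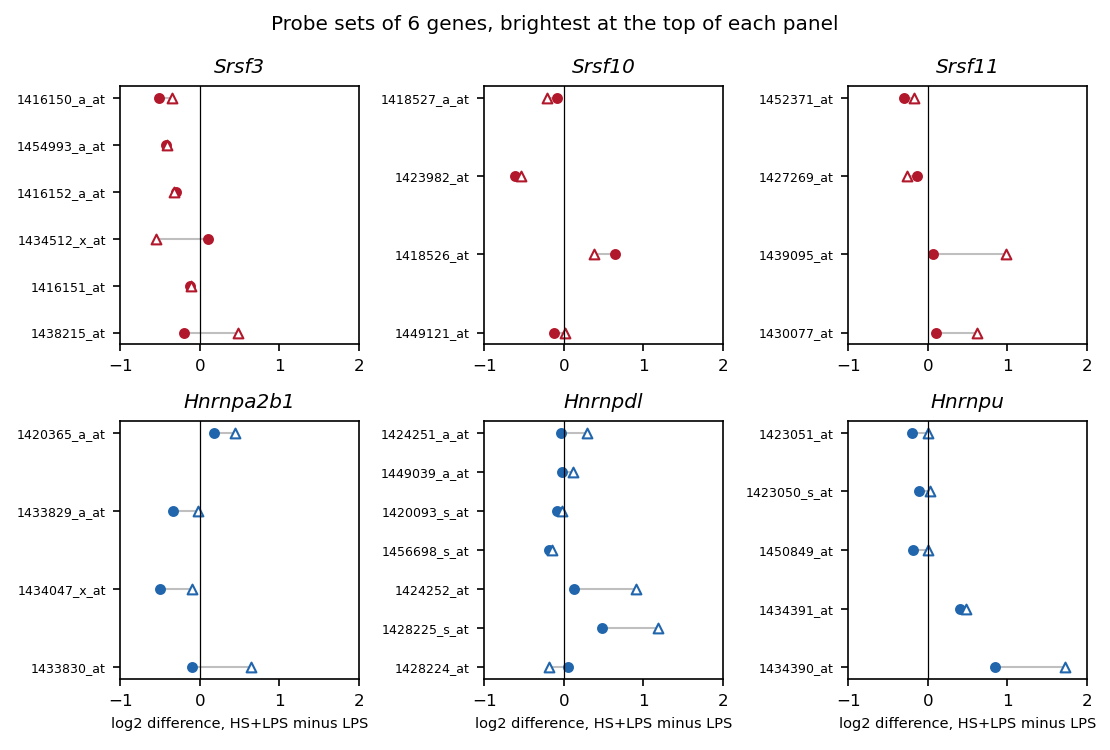
Log2 difference in signal between HS+LPS and LPS for every probe set above the filter of 6 genes, brightest at the top of each panel; filled circles are culture 1 and open triangles culture 2. The Srsf10 probe sets 1423982_at and 1418526_at lie on opposite sides of 0 in both cultures, and 1434390_at of Hnrnpu lies right of the brighter Hnrnpu probe sets.

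Whether a probe set moved differently from the brightest of its gene was tested on their log2 ratio, over 10709 such ratios in all genes, in a test added after the probe sets had been seen. None of the 57 ratios of these genes passed in HS+LPS against LPS: limma called 0 without the block and 0 with it, as it did over all ratios (0%). At an unadjusted p under 0.05 with the block, 4 of the 57 were higher and 2 lower, beside 7.55% and 4.44% of all ratios (without it 2 and 1, beside 5.28% and 3.38%). Against Control limma again called 0, with 7 higher and 0 lower at that p with the block, beside 8.71% and 3.97% (without it 4 and 0, beside 5.9% and 2.95%). The ratio of 1418526_at to the brightest Srsf10 probe set differed by 0.66 (SE 0.15; 0.72 and 0.60 by culture; adjusted p = 0.43, with the block 0.307), and that of 1434390_at to the brightest Hnrnpu probe set by 1.39 (SE 0.89; 0.757 and 0.307). The ratio of 1434047_x_at to the brightest Hnrnpa2b1 probe set differed by -0.61 (SE 0.17; 0.504 and 0.307). Only ratios to the brightest probe set were tested, so the 2 Srsf10 probe sets that moved apart were not set against each other, and a test that calls no ratio of any gene says little about these.

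Other genes of the splicing pathway, from 6 lists, included 1 called without the block in HS+LPS against LPS, beside 1.35% of all genes. It was Ptbp2, a relative of the polypyrimidine tract binding protein (hnRNP I) that regulates neuronal exons, and it read 158 and 187 in Control, 140 and 185 in LPS, and 411 and 538 in HS+LPS. Both heated arrays were far above the other 4. The rise over LPS was 2.88-fold (a log2 difference of 1.53 in each culture, SE 0.21; limma adjusted p = 0.0352, with the block 3.93e-05), and 2.70-fold over Control (adjusted p = 0.0678, with the block 8.53e-05). Its adjusted p over LPS was 0.0709 to 0.192 when any 1 array was left out, so that call rests on all 6 arrays, and it held in 6 of 10 other settings without the block; of the 6 neural and glial markers given above, Stmn2, Map2 and Sox2 were also highest in HS+LPS in both cultures, and Tubb3 was lowest there.

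In its list of SR-related and other hnRNP-type proteins, 48 of 50 genes were tested; 1 rose without the block, and with it 5 rose and 6 fell in HS+LPS against LPS, beside 6.32% and 12.6% of all genes (median -0.05, as over all genes). Safb, a scaffold protein of the nuclear bodies that form on heat stress in human cells, went from 200 ± 19.2 (SD, n = 2) to 127 ± 5.99 (-0.64 on the log2 scale, SE 0.14, adjusted p = 0.105 and 0.00609 with the block). Srek1, an SR-related protein, had a difference of -0.63 (0.118 and 0.00868) and Scaf11 of -0.42 (0.261 and 0.0126). Tardbp, which represses cryptic exons, had one of 0.47 (0.286 and 0.00542).

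Of 16 other kinases and phosphatases that act on SR proteins or splicing factors, 0 were called without the block (5 at an unadjusted p under 0.05), and with it 3 rose and 1 fell (median 0.08), beside 16.8% of all genes at that p and 6.32% higher and 12.6% lower with the block. Dyrk1a and Dyrk2, kinases of the same group as the CLKs, had log2 differences to LPS of 0.65 (adjusted p = 0.282, with the block 0.0178) and 0.53 (0.142 and 0.00698), and the phosphatase subunit Ppp1ca one of 0.30 (0.29 and 0.0232). Prpf4b, a spliceosome kinase, went from 241 ± 22.3 (SD, n = 2) to 166 ± 10.1 (-0.53, SE 0.17; 0.216 and 0.0103).

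Of 71 core spliceosome genes tested 0 were called without the block (10 at an unadjusted p under 0.05), and with it 6 rose and 7 fell (median -0.02), near the 16.8%, 6.32% and 12.6% of all genes. Cwc27 and Cwc22, proteins of the active spliceosome, had differences to LPS of -0.69 (adjusted p = 0.279, with the block 0.0335) and -0.58 (0.153 and 0.0128), and Sf3a1, of the U2 particle, -0.48 (0.297 and 0.0309). Among 41 tissue and signal regulated splicing factors 0 were called without the block (10 at an unadjusted p under 0.05), and with it 5 rose and 7 fell (median 0.04; 16.8%, 6.32% and 12.6% of all genes). Rbm15, which guides mRNA methylation, read 85.3 ± 7.27 (SD, n = 2) in LPS and 206 ± 84.1 in HS+LPS (1.18, SE 0.30; adjusted p = 0.13, with the block 0.00268), and Msi2, an RNA-binding translation regulator, went from 101 ± 3.2 to 49.0 ± 17.3 (-1.03; 0.132 and 0.0065).

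In the nonsense-mediated decay and exon junction list 0 of 12 genes were called without the block (1 at an unadjusted p under 0.05, beside 16.8% of all genes), and with it 1 fell, beside 12.6% of all genes: Pnrc2, a decay cofactor, at 386 ± 95.3 (SD, n = 2) in LPS and 249 ± 65 in HS+LPS (-0.63, SE 0.30; adjusted p = 0.362, with the block 0.00205). Of 14 mRNA export factors 0 were called without it (2 at an unadjusted p under 0.05), and with it 2 fell, near the shares of all genes just given: Nxt1 (-0.46; 0.232 and 0.0465) and Ddx39b (-0.31; 0.29 and 0.02). In HS+LPS against Control 0 genes of the 6 lists were called without the block (0.178% of all genes). With it, beside 5.06% higher and 12.1% lower of all genes, 4 core spliceosome genes rose and 7 fell. Of the SR-related and hnRNP-type genes 4 rose and 5 fell. Of the other kinases and phosphatases 3 rose and 2 fell, and of the tissue and signal regulated factors 3 and 4. In the decay and export lists 0 rose and 2 fell in each. In LPS against Control limma called 0 genes of the 6 lists without the block and 0 with it, beside 0.147% and 2.74% of all genes. Without the block 3 had an unadjusted p under 0.05, beside 4.87% of all genes.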

How the data were processed

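Total RNA was labelled as biotinylated cRNA and hybridised to 1-colour Affymetrix arrays, per the labels' protocols. The deposited values are linear intensities, 1 per probe set and array; a trimmed mean of 100.001 on every array (2% taken off each end) shows that they were scaled, and the software was not given in the sources used here. They were used as deposited, since array medians differed by at most 1.21 times. Of 45101 probe sets, those dimmer than the 40th percentile (mean log2 signal over arrays) were not tested, 1 probe set stood for each gene (the brightest that has a single symbol), and the pseudocount was the 25th percentile of all values (3.37). The tests used R 4.3.3 and limma 3.58.1: 1 linear fit of the 3 groups, then eBayes with trend. Simulated data served only to check that the fit returned the median size of added differences. They were not used to judge the p-values. 1 further hnRNP gene is not reported here. All 32 symbols matched the RefSeq gene table through their Entrez identifiers.

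Per the labels, a replicate number stands for 1 embryo, so the numbers pair arrays across groups; deviations from the group means correlated at 0.62, 0.57 and 0.53 between groups of a culture. With 2 cultures in each group, the number of arrays limits the precision. The genes given in full were all CLK genes, those called at the main settings and the 3 of highest mean signal per family. Of genes called with the block only, up to 4 per comparison and family were taken. From the pathway lists they were genes called without the block and up to 4 per list called with it, some of which are named. The members and lists were chosen with earlier results of these data known.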

Additional observations from a re-analysis of the deposited data

How the results depend on the processing

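Without the block, 0 of the 32 genes were called in each of the 3 comparisons under 10 other settings (pseudocount 1 or 16, no filter, a filter at the 60th percentile, quantile normalization, median centring, 2 probe set rules, no intensity trend, only the 2 groups compared) and in the 6 fits that each left out 1 array (0 to 0). Adding the culture as a replicate block gave 6 calls in HS+LPS against LPS, 6 in HS+LPS against Control and 0 in LPS against Control. The same settings were repeated with the block, which was decided after seeing the data. HS+LPS against LPS then gave 3 calls with no filter and 0 with no intensity trend, and 2 to 8 when 1 array was left out (2 without LPS replicate 1, 3 without LPS replicate 2). HS+LPS against Control gave 3 with no filter, 2 with the mean of all probe sets and 0 with no intensity trend, and 0 to 8 when 1 array was left out (2 without Control replicate 1, 0 without Control replicate 2, 3 without HS+LPS replicate 2). LPS against Control gave 0 in all of these. With 1 array left out, the lone array of a group is assumed to vary like the others, and with the block 1 residual degree of freedom remains. The cause of these losses was not tested. Shares of all genes called under each of these settings are not given here, so the counts cannot set the 32 genes apart. No called difference changed direction. Srsf12, near noise, has no readable direction.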
